A study of Mus musculus with 24 samples.

Results

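Liver microRNAs (miRNAs) known as responders to injury, to the p53 tumour suppressor and to hypoxia were followed in fresh and stored tissue: mmu-miR-21a-5p and mmu-miR-21a-3p, mmu-miR-34a-5p, and mmu-miR-210-3p. They were taken by name, 4 of the 1881 mouse miRNAs on the array. After 96 h of storage the signals of mmu-miR-21a-5p and mmu-miR-34a-5p were lower in every mouse, and once arrays were centred on 103 miRNAs detected in fresh liver their remaining change lay between -0.21 and 0.03 on a log2-like scale. Summed over all array probes, the remaining change of miR-34a-5p was -0.11 with DNase and 0.17 without. That remainder depended on the reference, and for miR-21a-5p with DNase it was -1.01 against a wider set of 139 miRNAs and 1.01 against 10 abundant liver miRNAs. MiR-21a-3p and miR-210-3p were near the detection limit on all arrays. The unscaled signal of miR-21a-3p was lower after storage in every mouse. That of miR-210-3p was higher in mice 7 and 9 and lower in mouse 10 with DNase, and lower in every mouse without.

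Livers of 3 male mice, numbered 7, 10 and 9 in the labels, were each divided and gave 8 RNA samples, for 24 one-colour arrays. The methods name C57BL6 mice lacking Il1a for another part of the study, and do not say whether these livers came from the same strain. Their age is not given in the sources used here. In 4 groups total RNA including small RNAs was isolated with the miRNeasy kit from tissue kept for 0 h or for 96 h at room temperature, each with and without digestion by DNase. In the other 4 groups RNA from unstored tissue was isolated with the RNeasy kit and DNase, which retains few small RNAs and is called depleted RNA here. Depleted RNA was hybridized as it was, or after incubation with 0 U, 0.026 U or 0.67 U of RNase and a second isolation. For mouse 9 the titles and the descriptions of both RNase arrays name opposite doses. The descriptions were followed, since the RNA integrity numbers in the labels go with them. All 8 arrays of a mouse share a slide and a scan, so that mouse, slide and scan cannot be told apart.

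MiRNAs are cut from hairpin precursors and guide Argonaute proteins to messenger RNAs, which they recognize mainly through the seed, bases 2 to 8 from the 5′ end. MiR-21 is induced in many forms of tissue injury and inflammation and lies within the gene for the autophagy protein Vmp1. MiR-34a is transcribed under p53 and represses cell cycle and survival genes. MiR-210 is the best known target of hypoxia-inducible factor among miRNAs and lowers mitochondrial respiration.

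The mature sequences from RefSeq (GRCm38.p6) are shown for all 4 members, followed by relatives that carry the seed of a member. Letters in capitals mark the seed.
mmu-miR-21a-5p: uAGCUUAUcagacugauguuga
mmu-miR-21a-3p: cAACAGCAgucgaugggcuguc
mmu-miR-34a-5p: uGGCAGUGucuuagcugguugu
mmu-miR-210-3p: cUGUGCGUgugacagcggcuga
The next 3 are among the relatives for which a sequence was matched and which carry the seed of a member.
mmu-miR-21c: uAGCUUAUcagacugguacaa
mmu-miR-34b-5p: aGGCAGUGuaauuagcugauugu
mmu-miR-449a-5p: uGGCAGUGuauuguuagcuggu

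Both arms of miR-21a come from 1 hairpin on the minus strand of chromosome 11, the 5p arm at chr11:86584120-86584141 and the 3p arm at chr11:86584082-86584103, within the annotated span of Vmp1. MiR-34a-5p lies on the plus strand at chr4:150068473-150068494 and miR-210-3p on the minus strand at chr7:141221407-141221428, and no other gene of the annotation overlaps either. The 4 members have 4 different seeds and 22 bases each, with a GC content of 36.4% for miR-21a-5p, 59.1% for miR-21a-3p, 50% for miR-34a-5p and 63.6% for miR-210-3p. Relative to miR-21a-5p, counted from 1 at the 5′ end, miR-21c carries A16G, G18A, U19C, U20A and G21A, all outside the seed, while miR-21b carries C4U within it. None of miR-21b, miR-21c, miR-34b-5p, miR-34c-5p, miR-449a-5p, miR-449b and miR-449c-5p was detected on any of the 24 arrays. The signals of these 7 relatives ran from -2.20 to 0.90 intensity units. The opposite arms mmu-miR-34a-3p and mmu-miR-210-5p were likewise detected on 0 arrays.

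The RNA integrity number (RIN), which is high for intact RNA, was 8.8 to 9 on the 6 fresh arrays with small RNAs and 2.3 to 2.5 on the 6 stored ones. The number of miRNAs detected per array rose from between 273 and 342 to between 582 and 707, and the summed signal of detected miRNAs from between 55237 and 163490 to between 187380 and 362320 intensity units. The hepatocyte marker mmu-miR-122-5p was detected on 24 of 24 arrays. Signals are background-subtracted fluorescence in intensity units. Levels between arrays are given after variance stabilizing normalization (vsn), on the glog2 scale, which for bright signals reads as log2. A miRNA was called changed at a Benjamini-Hochberg adjusted p under 0.05 (limma) with a change of at least 1 on that scale.

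**Figure D1:**
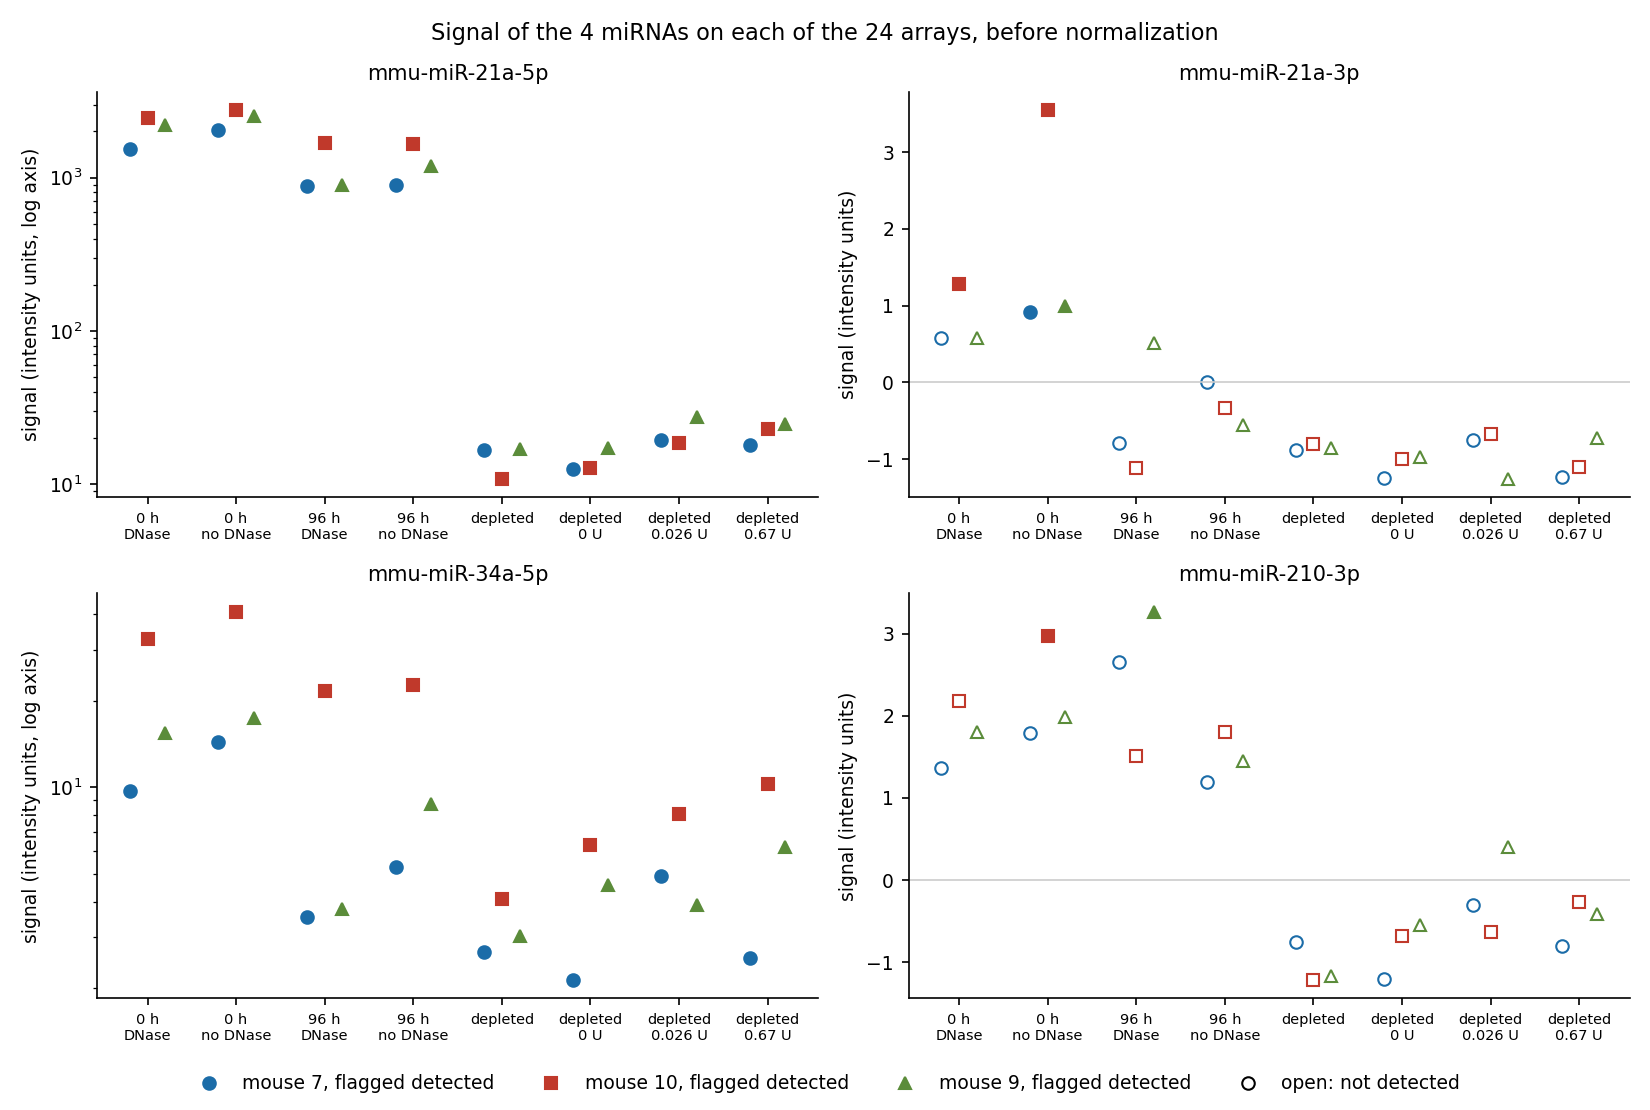
Signal of each member on each of the 24 arrays before normalization, in intensity units (log axis for mmu-miR-21a-5p and mmu-miR-34a-5p, linear for the others), by group, with 1 symbol per mouse. Filled symbols are scanner totals of miRNAs that the scanner software detected. Open symbols are sums over all probes of miRNAs not detected. Mmu-miR-21a-5p spans 10.8 to 2746 units and is detected on every array, while mmu-miR-210-3p is detected on 2 arrays.

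The first question was which members give a signal in fresh liver. With DNase, mmu-miR-21a-5p gave 1541.5, 2451.7 and 2221.3 intensity units in mice 7, 10 and 9. Without DNase it gave 2054.5, 2746 and 2515.3. It was bright in every mouse, with no saturated spot, and the preparations with and without DNase overlapped.

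Mmu-miR-34a-5p gave 9.69, 32.9 and 15.4 units in mice 7, 10 and 9 with DNase, and 14.4, 40.7 and 17.3 without. Mouse 10 was highest in both preparations, and the miRNA was detected on all 24 arrays. The scanner total of a detected miRNA sums only its detected probes, however, so that the total of miR-34a-5p holds both of its probes on 15 arrays and the brighter one alone on 9. The fresh totals above hold both, and sums over both probes are given beside the totals below where they differ. Mmu-miR-21a-3p, the less abundant arm of its hairpin, gave 0.575, 1.28 and 0.576 units with DNase, where only mouse 10 passed detection. Without DNase it gave 0.912, 3.54 and 0.995 units and was detected in 3 of 3 mice. Each of its 4 detected totals leaves out at least 1 of its 4 probes. Mmu-miR-210-3p gave 1.36, 2.18 and 1.81 units with DNase, detected in no mouse, and 1.79, 2.97 and 1.99 without, detected in mouse 10 alone. Of the 4 members, 2 were thus detected on at least 5 arrays and entered the tests, among 631 miRNAs in all. MiR-21a-3p was detected on 4 arrays and miR-210-3p on 2.

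The second question was whether storage raised any member. Stored tissue with DNase gave 875.95, 1672.9 and 897.93 units of mmu-miR-21a-5p in mice 7, 10 and 9, which is 56.8%, 68.2% and 40.4% of the fresh signal of the same mouse. Without DNase 888.71, 1654.5 and 1190.5 units were left, or 43.3%, 60.3% and 47.3%. It was lower in every mouse, although the stored array of mouse 10 lay above the fresh array of mouse 7 with DNase. Without DNase the groups did not overlap. On the glog2 scale the level fell from 11.40 ± 0.33 to 8.63 ± 0.86 (SD, n = 3 each) with DNase, a change of -2.77 (SE 0.37, limma adjusted p = 7.95e-07). Without DNase the change was -2.74 (SE 0.37, limma adjusted p = 1.09e-06). Before any scaling the changes were smaller, -0.89 with DNase, which is under the threshold of size (limma adjusted p = 0.0175), and -1.01 without. A smaller number of cells and less RNA per cell cannot be told apart in bulk tissue.

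For mmu-miR-34a-5p storage left 3.54, 21.6 and 3.78 units with DNase in mice 7, 10 and 9, and those of mice 7 and 9 are of the brighter probe alone. Summed over both probes, 3.76, 21.6 and 4.71 units were left, which is 38.8%, 65.8% and 30.6% of the fresh signal. Without DNase 5.28, 22.7 and 8.74 units were left, where the value of mouse 7 is of the brighter probe alone and is 8.14 over both. Over both probes 56.6%, 55.8% and 50.4% of the fresh signal remained. It fell in every mouse in both preparations, with mouse 10 highest throughout, so that fresh and stored arrays of different mice overlapped. The change was -2.95 (SE 0.66, limma adjusted p = 0.000317) with DNase and -2.68 (SE 0.66, limma adjusted p = 0.000801) without. With all probes of every miRNA summed, a setting chosen after the data were seen, it was -2.85 (SE 0.57, limma adjusted p = 0.000114) and -2.51 (SE 0.57, limma adjusted p = 0.000416). With no normalization it was -1.36 and -1.09 on the log2 scale and no longer passed the threshold.

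Of the 631 miRNAs tested in each storage comparison, 21.6% were called lower and 59.7% higher with DNase, and 23.1% and 59.6% without. Both tested members were among the lower ones in both preparations. The difference between the 2 storage changes was 0.03 (SE 0.52, limma adjusted p = 0.981) for miR-21a-5p and 0.27 (SE 0.93, limma adjusted p = 0.933) for miR-34a-5p. The 95% interval of that difference ran from -1.06 to 1.13 for the former and from -1.66 to 2.21 for the latter. It passed the threshold for 1.11% of all miRNAs tested.

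**Figure D2:**
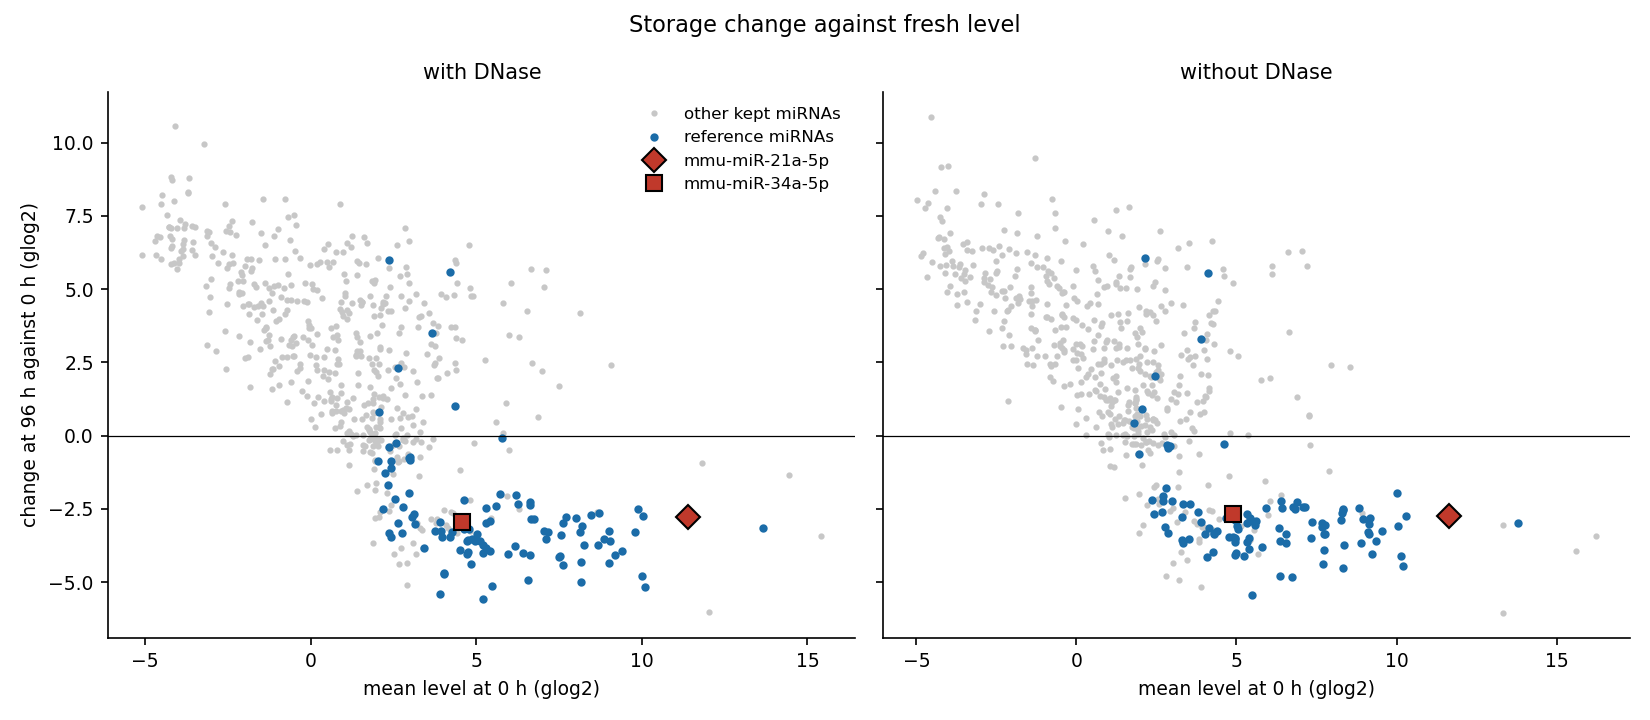
Change at 96 h against 0 h (vertical, glog2) against the mean level at 0 h (horizontal, glog2) for the 631 miRNAs tested, with and without DNase. Blue points are the 103 reference miRNAs, and mmu-miR-21a-5p (diamond, -2.77 and -2.74) and mmu-miR-34a-5p (square, -2.95 and -2.68) lie within the band that these form below 0.

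To see whether the members differ from the general loss, 103 reference miRNAs were used, which are numbered below 300 or belong to the let-7 family and were detected on all 6 fresh arrays with small RNAs. With DNase 86.4% of them were called lower and 4.85% higher, and without DNase 89.3% and 3.88%. The median of their changes was -3.26 with DNase, with quartiles of -3.84 and -2.42. With DNase 67 of the 103 fell more than miR-21a-5p, and 63 more than miR-34a-5p. Without DNase these numbers were 67 and 68.

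After each array was centred on the median level of the reference miRNAs, the storage change of mmu-miR-21a-5p was -0.03 (SE 0.25, 95% interval -0.56 to 0.50, limma adjusted p = 0.913) with DNase. Without DNase it was -0.02 (SE 0.25, 95% interval -0.55 to 0.50, limma adjusted p = 0.931). For mmu-miR-34a-5p it was -0.21 (SE 0.47, 95% interval -1.18 to 0.76, limma adjusted p = 0.676) with DNase and 0.03 (SE 0.47, 95% interval -0.94 to 1.01, limma adjusted p = 0.947) without. With all probes summed, miR-34a-5p was at -0.11 (SE 0.35, limma adjusted p = 0.761) with DNase and 0.17 (SE 0.35, limma adjusted p = 0.664) without. On the totals the upper ends of the intervals bound a relative rise at 0.50 for miR-21a-5p and 1.01 for miR-34a-5p under this reference. In this fit 85.4% of all miRNAs tested passed the threshold with DNase and 81.6% without.

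Within single mice the order of the changes was compared with that of the reference. With DNase the reference median moved by -2.53, -2.09 and -3.61 in mice 7, 10 and 9. MiR-21a-5p moved by -2.79, -1.95 and -3.58 in the same order, and miR-34a-5p by -3.02, -1.95 and -3.90. Mouse 10 lost least and mouse 9 most in all 3 series. Without DNase the reference median moved by -2.56, -2.72 and -2.86 in mice 7, 10 and 9, miR-21a-5p by -2.90, -2.60 and -2.72, and miR-34a-5p by -2.92, -2.65 and -2.48. There the order of miR-34a-5p on the totals was the reverse of that of the reference. The stored total of mouse 7 without DNase holds the brighter probe alone, however, while its fresh total holds both. Over both probes mice 7, 10 and 9 kept 56.6%, 55.8% and 50.4% of the unscaled miR-34a-5p signal. These percentages are unscaled while the reference changes are on the glog2 scale, so their orders were not compared. With DNase the stored totals of mice 7 and 9 hold the brighter probe alone too. The departures of the totals from the reference median without DNase lay between -0.34 and 0.15 for miR-21a-5p. For miR-34a-5p they lay between -0.36 and 0.38.

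**Figure D3:**
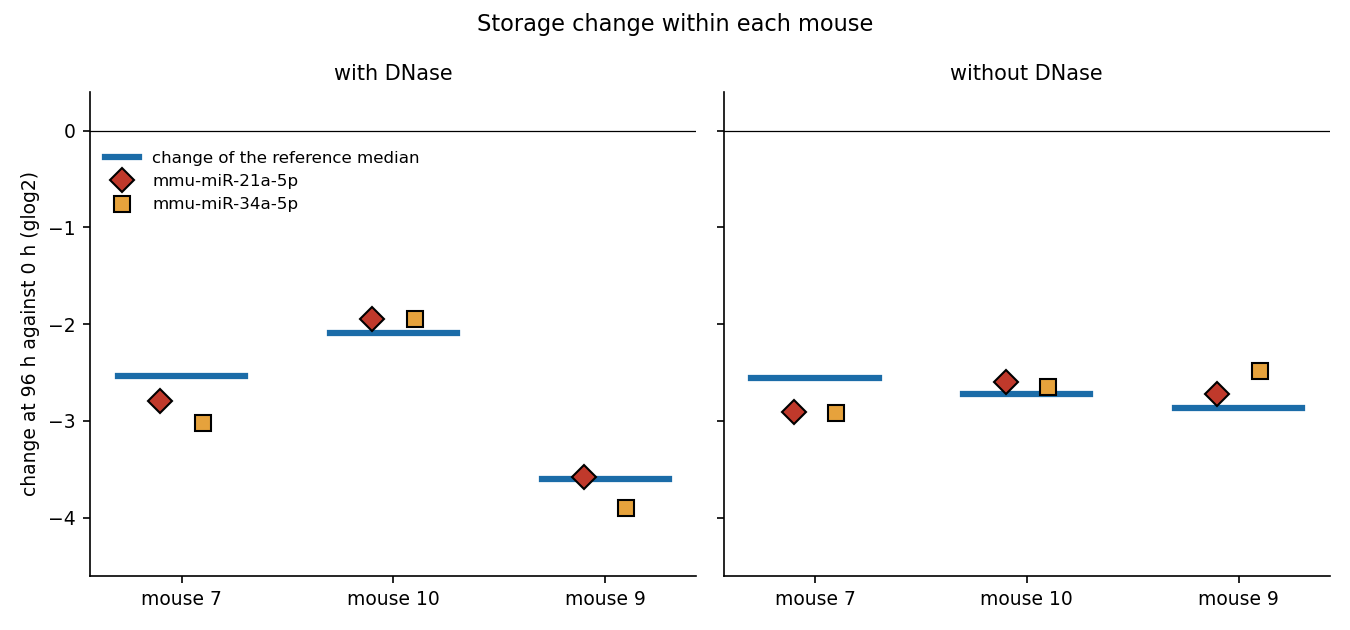
Change at 96 h against 0 h in each mouse (glog2), with and without DNase, for mmu-miR-21a-5p (diamonds), mmu-miR-34a-5p (squares) and the reference median (bars, the difference of the medians over 103 miRNAs). With DNase both members and the reference are least changed in mouse 10 and most in mouse 9. Values of both members are from scanner totals. The stored totals of mmu-miR-34a-5p hold the brighter probe alone in mice 7 and 9 with DNase and in mouse 7 without.

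The size of the relative change depended on which miRNAs formed the reference. Against all 139 tested miRNAs numbered below 300 or in the let-7 family, miR-21a-5p was lower by -1.01 (limma adjusted p = 0.00145) and miR-34a-5p by -1.19 (limma adjusted p = 0.0241) with DNase. Against a list of 10 abundant liver miRNAs, miR-21a-5p was instead higher by 1.01 (limma adjusted p = 0.000544) and miR-34a-5p by 0.83 (limma adjusted p = 0.0909).

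**Figure D4:**
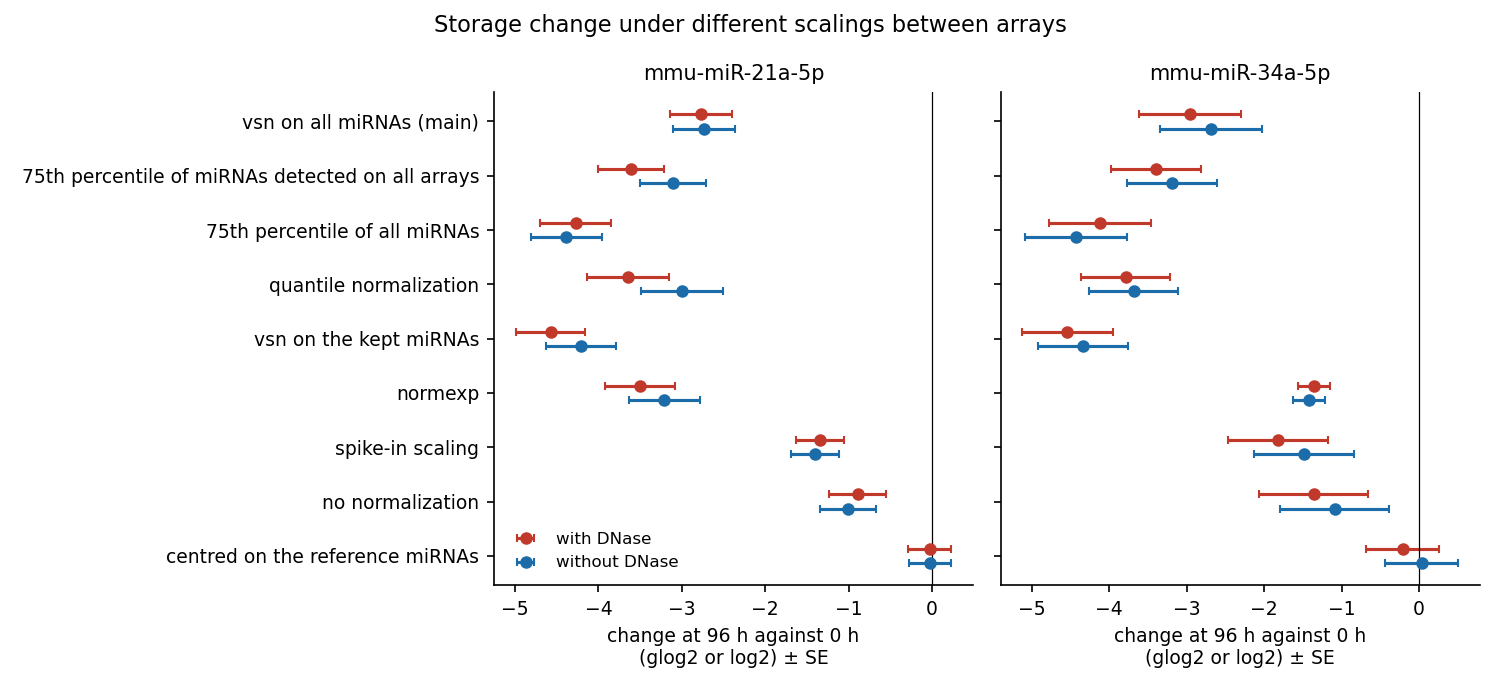
Storage change ± SE (horizontal, glog2 or log2) of mmu-miR-21a-5p and mmu-miR-34a-5p with and without DNase under 9 ways of scaling arrays to each other. All lie below 0 but 1, that of mmu-miR-34a-5p without DNase with arrays centred on the reference miRNAs, where the 4 values lie between -0.21 and 0.03.

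The members near the detection limit were compared without a test. Mmu-miR-21a-3p gave -0.791, -1.11 and 0.515 units in mice 7, 10 and 9 after storage with DNase, and 0.00551, -0.328 and -0.557 without. Each stored array was below the fresh array of its mouse, and none passed detection. No fold is given, since no stored array detected it. Its detected fresh totals also leave out probes that its stored signals, summed over all probes, hold.

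Mmu-miR-210-3p gave 2.66, 1.51 and 3.27 units after storage with DNase and 1.19, 1.81 and 1.44 without. The detected totals, of stored mouse 9 with DNase and of fresh mouse 10 without, hold 1 of its 2 probes, and were 5.40 and 4.51 over both. With DNase the signal was higher than fresh in mice 7 and 9 and lower in mouse 10, and mouse 9 alone passed detection. Without DNase it was lower than fresh in 3 of 3 mice and detected in none. No fold is given, because neither group detected it on more than 1 array. On the glog2 scale it fell by less than the reference median in 6 of 6 mouse pairs, with departures of 0.66 to 2.31 with DNase and 0.68 to 1.27 without. No pair was detected on both of its arrays, so that these departures are between signals at the detection limit and were given no test.

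Both tested members were read by 2 probes each, and these were compared because probes of a miRNA may disagree. The brighter probe of miR-21a-5p kept 41.3% to 69.9% of its signal in storage with DNase and the dimmer one 38.8% to 65.4%. For miR-34a-5p the brighter probe kept 60.5%, 66.6% and 40.8% in mice 7, 10 and 9. The dimmer probe kept 5.70%, 64.7% and 15.2%, with 0.219 and 0.93 units left in mice 7 and 9. The dimmer probe is missing from the total of miR-34a-5p on 9 arrays, namely these 2, the stored array of mouse 7 without DNase, all 3 of depleted RNA, mouse 7 at 0 U and at 0.67 U, and mouse 9 at 0.026 U. Without DNase the dimmer probe kept 49.2% to 54.2% and the brighter one 51.2% to 59.6%.

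The third question was whether DNA adds to the signals. In fresh RNA without DNase miR-21a-5p was 1.33, 1.12 and 1.13 times as bright as with DNase in mice 7, 10 and 9, and miR-34a-5p 1.48, 1.24 and 1.13 times. The differences on the glog2 scale were 0.24 (SE 0.37) and 0.33 (SE 0.66), both with a limma adjusted p of 0.991. In that comparison 0% of the miRNAs tested were called by limma, with 29 at an unadjusted p under 0.05. The exact rank test could call none there, since it cannot go below p = 0.1 with 3 against 3. In stored RNA the differences were 0.27 (SE 0.37, limma adjusted p = 0.666) and 0.61 (SE 0.66, limma adjusted p = 0.596), where 10.8% of all miRNAs were called.

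The fourth question was how much of the signal needs small RNAs. In depleted RNA mmu-miR-21a-5p gave 16.7, 10.8 and 16.8 units in mice 7, 10 and 9, so that the fresh arrays were 92.6, 226.5 and 132.3 times as bright. The change was -6.98 (SE 0.37, limma adjusted p = 5.36e-12), and 24.4% of all miRNAs were called lower. Stored tissue was still 52.6, 154.6 and 53.5 times as bright as depleted RNA, a difference of 4.21 (SE 0.37, limma adjusted p = 3.49e-09), where 61% of all miRNAs were called higher and 8.08% lower. Stored tissue and depleted RNA did not overlap.

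For mmu-miR-34a-5p depleted RNA gave totals of 2.67, 4.09 and 3.04 units, all of the brighter probe alone, and 4.11, 6.19 and 4.55 units over both probes. Over both probes the fresh arrays were 2.36, 5.30 and 3.38 times as bright. The change was -2.06 (SE 0.66, limma adjusted p = 0.0194) on the totals and -1.55 (SE 0.57, limma adjusted p = 0.0401) with all probes summed. Without mouse 7 or mouse 9 it was -2.33 and -2.07 and did not pass (limma adjusted p = 0.0502 and 0.14), and centred on the reference miRNAs it was 0.94. In stored tissue the signal over both probes was 0.915, 3.49 and 1.04 times that of depleted RNA in mice 7, 10 and 9. The stored arrays of mice 7 and 9 were thus near the level of depleted RNA, which still holds some small RNAs. On the glog2 scale stored tissue was at -0.90 against depleted RNA (SE 0.66, limma adjusted p = 0.224), with all probes summed at -1.30 (SE 0.57, limma adjusted p = 0.0446), and without mouse 10 at -1.69 (limma adjusted p = 0.00733). With no normalization the difference of the totals was 1.04 (limma adjusted p = 0.163), of opposite sign.

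The last question was whether fragments of longer RNA give these signals. Incubation and a second isolation alone changed miR-21a-5p by 0.24 (SE 0.37) and miR-34a-5p by 0.55 (SE 0.66), both with a limma adjusted p of 0.992, against 1.43% of all miRNAs called. Since the depleted totals of miR-34a-5p hold 1 probe, its value with all probes summed is given too, 0.23 (SE 0.57, limma adjusted p = 0.961), and the unscaled sums at 0 U were 0.829, 1.02 and 1.003 times those of depleted RNA. At 0 U miR-21a-5p gave 12.5, 12.8 and 17.1 units, at 0.026 U 19.5, 18.4 and 27.3, and at 0.67 U 17.8, 22.8 and 24.6. Each RNase array was above the 0 U array of its mouse before scaling. Over both doses the normalized change was 0.19 (SE 0.32, 95% interval -0.48 to 0.86, limma adjusted p = 0.718), while 44.5% of all miRNAs were called. Under quantile normalization it became -1.49 (limma adjusted p = 0.00565) and when scaled to the 75th percentile over the 122 always-detected miRNAs -1.13 (limma adjusted p = 0.00698).

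Over both probes miR-34a-5p gave 3.41, 6.29 and 4.56 units at 0 U in mice 7, 10 and 9, then 4.91, 8.06 and 6.10 at 0.026 U and 4.12, 10.2 and 6.18 at 0.67 U. Each RNase array was above the 0 U array of its mouse, by 1.21 to 1.63 times, and the groups overlapped. The change of the normalized totals over both doses was -0.02 (SE 0.57, 95% interval -1.20 to 1.17, limma adjusted p = 0.995), and -0.0040 (SE 0.49, limma adjusted p = 0.999) with all probes summed. Under quantile normalization it was -1.23 (limma adjusted p = 0.0427) and when scaled to the 75th percentile over the 122 always-detected miRNAs -1.29 (limma adjusted p = 0.032). At 0.026 U alone the changes of miR-21a-5p and miR-34a-5p were 0.23 and 0.01, and at 0.67 U 0.15 and -0.04, with 36.9% and 45.2% of all miRNAs called. MiR-21a-3p and miR-210-3p were detected on none of the 12 arrays of depleted RNA.

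Other miRNAs with known links to the same responses were counted from fixed lists. Of 13 listed as p53-responsive, 8 were detected on any array and 7 were tested, and with DNase 6 were lower and 0 higher, against 21.6% and 59.7% of all miRNAs. Their median change was -3.28, against 2.36 over all miRNAs tested and -3.26 over the 103 reference miRNAs, of which 86.4% were called lower. The smallest change in the list was that of mmu-miR-145a-5p, a miRNA of smooth muscle. It was -0.24 (SE 0.47, limma adjusted p = 0.645) with DNase and -2.62 without. With DNase it gave 13.9, 4.40 and 30.3 units after storage in mice 7, 10 and 9, from 4.03, 8.57 and 4.18 fresh, summed over both of its probes. With all probes summed its change was -0.63 (SE 0.40, limma adjusted p = 0.14). Its change with DNase was 0.69 without mouse 10, 1.70 with no normalization, 1.24 under spike-in scaling and 2.51 when arrays were centred on the reference miRNAs. The largest fall was that of mmu-miR-143-3p, also of smooth muscle, which fell by 3.98 (SE 0.61). Without DNase 7 of 7 were lower, against 89.3% of the reference miRNAs. Centred on the reference miRNAs, 1 of the 7 was lower, 1 higher and 5 not called with DNase. Their median was then -0.54. Without DNase 0 were then lower, 0 higher and 7 not called.

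Of 10 listed as hypoxia-responsive, 9 were tested, of which 8 were lower and 1 higher in both preparations, with a median change of -3.26 with DNase. The largest fall was that of mmu-miR-103-3p, which targets the Dicer enzyme and fell by 4.93 (SE 0.57). Of 9 linked to inflammation and injury, 6 were tested, and 5 were lower and 1 higher in both preparations, with a median of -3.04 with DNase. Its largest fall was that of mmu-miR-199a-3p, by 3.94 (SE 0.50). The 10 abundant liver miRNAs were all called lower, from mmu-miR-101a-3p with -2.32 to mmu-let-7f-5p with -5.18. With DNase 21.6% of all miRNAs tested were called lower and 59.7% higher, against 86.4% and 4.85% of the reference miRNAs. Centred on the reference miRNAs, 1 hypoxia-responsive miRNA was lower, 1 higher and 7 not called in both preparations. Of the inflammation and injury list 1 was lower, 2 higher and 3 not called with DNase, and 1, 1 and 4 without. Of the abundant liver miRNAs 2 were lower, 0 higher and 8 not called in both.

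The miRNA called higher before centring in both the hypoxia and the inflammation list was mmu-miR-155-5p, which is induced in activated macrophages and lymphocytes. It gave 1.02, 1.31 and 1.39 units on the fresh arrays with DNase, none of them detected, and 51.8, 26.7 and 66 units after storage, all detected. The glog2 level rose by 2.70 (SE 0.47, limma adjusted p = 2.35e-05). The fresh signal, although not detected, lay above the lowest detected signals, so no bound beyond this difference is given. Without DNase the stored arrays gave 12.9, 34.6 and 3.34 units, the value of mouse 9 being of 1 of its 2 probes. The change was 1.20 (SE 0.47, limma adjusted p = 0.0231), and the groups overlapped. Stored mouse 9 was at 1.08 on the glog2 scale, below fresh mouse 10 at 1.81. The rise without DNase was not called without mouse 7 (1.06, limma adjusted p = 0.183) or without mouse 10 (0.90, limma adjusted p = 0.0896). It was not called either under 75th percentile scaling over always-detected miRNAs (1.02) or over all miRNAs (0.51), quantile normalization (0.77) or normexp (0.14). A fit of only the groups compared did not call it (limma adjusted p = 0.112), and the exact rank test cannot with 3 against 3. With vsn on the kept miRNAs it was -0.70. In that setting the change with DNase was 0.67 (limma adjusted p = 0.125), and with normexp it was 0.40, under the threshold of size. The rises with and without DNase were larger and called with no normalization (5.19 and 3.16) and spike-in scaling (4.74 and 2.87). Centred on the reference miRNAs they were 5.45 and 3.92, where the median over all miRNAs tested was 5.10 and 4.81. With all probes summed they were 2.70 and 1.41, both called. RNase treatment of depleted RNA also raised miR-155-5p, by 1.03 (SE 0.41, limma adjusted p = 0.0461), with detection in mouse 9 alone at 0.026 U and in mouse 10 alone at 0.67 U. That call was lost without mouse 7 (0.80, limma adjusted p = 0.39) and without mouse 9 (1.05, limma adjusted p = 0.0779). It was also lost under both 75th percentile scalings, with no normalization, spike-in scaling, normexp, no filter on detection, eBayes without a trend, the exact rank test and centring on the reference miRNAs, and the change was -0.23 with vsn on the kept miRNAs.

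Over the 24 arrays the miRNAs whose glog2 levels ran most like mmu-miR-21a-5p were mmu-miR-148a-3p, mmu-miR-451a and mmu-miR-15a-5p, with Pearson correlations of 0.993, 0.992 and 0.987. For mmu-miR-34a-5p they were mmu-miR-31-5p, mmu-let-7f-5p and mmu-miR-23a-3p, at 0.924, 0.924 and 0.919. For miR-21a-3p, mostly undetected, the highest was mmu-miR-30e-5p at 0.922, followed by mmu-miR-19b-3p at 0.921 and mmu-miR-3968 at 0.92. For miR-210-3p they were mmu-miR-6366 at 0.935, mmu-miR-6368 at 0.908 and mmu-miR-21a-5p at 0.879. These values describe arrays that share mice, slides and the contrast between RNA with small RNAs and depleted RNA.

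Markers of cells other than hepatocytes moved with storage too. Of 8 such markers 7 were tested and 6 were called lower with DNase, against 21.6% of all miRNAs tested and 86.4% of the reference miRNAs. Among the 6 were mmu-miR-451a of red cells with -2.61, mmu-miR-223-3p of neutrophils with -2.90 and mmu-miR-126a-3p of endothelium with -4.34. The exception, mmu-miR-145a-5p, changed by -0.24 and was not called. The hepatocyte markers mmu-miR-122-5p and mmu-miR-122-3p changed by -3.14 and -4.07, both called. The summed signal of the 8 markers ran from 553.7 to 1046.5 units on fresh arrays with DNase and from 231.3 to 371.1 on stored ones. Their part in the fall of the members was not tested.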

How the data were processed

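Total or small-RNA-depleted RNA of 3 mouse livers was hybridized to 24 one-colour Agilent mouse miRNA arrays (1881 miRNAs). The authors extracted spot intensity values with Agilent Feature Extraction 10.10.1.1. The deposited intensity files hold background-subtracted signals summed over the spots of a miRNA, with detection flags. Where a miRNA was not detected, its signal was taken here as the sum over all its probes. The total of a detected miRNA sums only its detected probes: it leaves out a probe in 25.3% of the 8324 detected values of the miRNAs kept (tolerance 0.001), so that totals can hold different probes on different arrays. A fit on the sum of all probes was added after the data were seen. The authors also deposited a table on a log2-like scale after variance stabilizing normalization (vsn). Here vsn was refitted to the intensities, and its values differed from the deposited log2-like table by at most 0.0031.

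MiRNAs detected on at least 5 arrays were kept (631), and the 8 group means were fitted with limma 3.58.1 in R 4.3.3 (lmFit, eBayes with a trend). P values were adjusted by Benjamini-Hochberg over the 631, and a change was called at an adjusted p under 0.05 and a size of at least 1. Storage was compared within DNase treatment, and depleted RNA with fresh, stored and RNase-treated RNA. The methods' rank test, run here as an exact two-sided test, cannot go below p = 0.1 with 3 against 3 and was an alternative, as were other scalings, filters, reference miRNAs, dose labels and leaving out each mouse. The procedure was tested on simulated data.

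The 4 miRNAs and all lists were chosen with earlier results of these data known. Named from each list were the largest increase, or the smallest decrease where none increased, and the largest decrease with DNase, among miRNAs detected on every fresh or every stored array. The 3 miRNAs most like each member by Pearson correlation were named too.

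The replicate numbers pair arrays because the labels give the animal. Deviations from the group means correlated on average at 0.092 within a mouse and at -0.045 between arrays of different mice and groups. Arrays share 3 animals, and the number of arrays limits the precision. Of 11 relatives searched, 9 had a sequence in the RefSeq table, as had all 4 members.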

Additional observations from a re-analysis of the deposited data

How the results depend on the processing

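Of 76 storage changes of mmu-miR-21a-5p and mmu-miR-34a-5p under the alternatives, 1 was above 0, and they ran from -4.58 to 0.03. The filters, the replicate block, eBayes without a trend, fits of only the groups compared and the exact rank test cannot move these estimates. Under them the main values are repeated among the 76. With the mouse as a replicate block the calls of both were the same in every comparison (for example -2.77 for miR-21a-5p and -2.95 for miR-34a-5p in storage with DNase). With all probes of each miRNA summed, a setting chosen after the data were seen, miR-34a-5p stored against depleted was called (-1.30), and all other calls of both miRNAs were the same. The deposited table, eBayes without a trend, the filters and fits of only the groups compared changed none of their calls. Mice 7, 10 and 9 are replicates 1, 2 and 3. The causes of the changes below were not tested, and the low signal of miR-34a-5p limits its values.

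In what follows RNase values are for both doses, 0.026 U and 0.67 U in that order, and relative changes are those against the reference miRNAs, with and then without DNase. The exact rank test, with values of -2.77, -2.74, -6.98 and 4.21 for miR-21a-5p (storage with and without DNase, depletion, stored against depleted) and -2.95, -2.68 and -2.06 for miR-34a-5p, cannot reach the threshold at this size.

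Under the 75th percentile of all miRNAs, miR-21a-5p was at -0.69, -0.57 and -0.81 with RNase and at 0.078 and 0.063 relative, and its difference between storage changes was -0.11. MiR-34a-5p was at -1.88 stored against depleted, -0.74 at 0.026 U, 0.23 relative with DNase and -0.31 between storage changes. Scaled to the 75th percentile over the 122 always-detected miRNAs, miR-21a-5p was at -1.13, -0.95 and -1.31 with RNase, -0.017 after mock incubation and 0.078 and 0.063 relative. MiR-34a-5p was at -0.15 on depletion, -3.24 stored against depleted, -1.29, -1.12 and -1.47 with RNase and 0.29 and -0.022 relative.

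Under quantile normalization miR-21a-5p was at -1.49, -1.20 and -1.79 with RNase, 0.34 and 0.82 relative and -0.15 for fresh RNA without against with DNase. MiR-34a-5p was at -1.18 on depletion, -2.61 stored against depleted, -1.23, -0.94 and -1.53 with RNase and 0.21 relative with DNase. With normexp miR-21a-5p was at -0.99, -0.81 and -1.17 with RNase and -1.82 and -1.51 relative, and miR-34a-5p at -0.57 on depletion, -0.45 at 0.026 U, 0.32 relative with DNase and -0.059 between storage changes. The files hold no mean spot signal, so normexp was run on the median. With vsn on the kept miRNAs miR-21a-5p was at -0.78, -0.60 and -0.97 with RNase and 0.12 relative without DNase. MiR-34a-5p was at -2.97 stored against depleted, -0.90 at 0.026 U and -0.014 relative without DNase, and mmu-miR-155-5p at -0.70 in storage without DNase and -0.23 with RNase.

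With no normalization miR-21a-5p was at -0.89 in storage with DNase, -0.12 between storage changes, -0.048 after mock incubation and 0.078 and 0.063 relative. MiR-34a-5p was at -1.36 and -1.09 in storage, 1.04 stored against depleted, 0.45 with RNase, 0.47 at 0.67 U and -0.022 relative without DNase, and mmu-miR-145a-5p at 1.70 in storage with DNase. With spike-in scaling miR-21a-5p was at -0.060 between storage changes, -0.19 after mock incubation and 0.078 and 0.063 relative. MiR-34a-5p was at 0.31 stored against depleted, 0.31 with RNase, 0.32 at 0.67 U and -0.022 relative without DNase, and mmu-miR-145a-5p at 1.24 in storage with DNase.

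Centred on the reference miRNAs, storage changes were -0.030 and -0.024 for miR-21a-5p, -0.21 and 0.033 for miR-34a-5p, 0.43 and 0.29 for mmu-miR-101a-3p and 2.51 and 0.10 for mmu-miR-145a-5p. In that setting miR-21a-5p was at -0.050 at 0.67 U, and miR-34a-5p at 0.94 on depletion, -1.15 stored against depleted and -0.16 at 0.026 U. Against all kept miRNAs numbered below 300, relative changes were -1.01 and -1.002 for miR-21a-5p and -1.19 and -0.94 for miR-34a-5p. Against the abundant liver list they were 1.01 and 0.85 for miR-21a-5p and 0.83 with DNase for miR-34a-5p. With the doses that the titles give for mouse 9, miR-21a-5p was at -0.034 at 0.67 U.

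Leaving out each mouse gave storage changes of -3.19 to -2.37 with DNase and -2.81 to -2.66 without for miR-21a-5p, and -3.46 to -2.48 and -2.78 to -2.56 for miR-34a-5p. For miR-34a-5p depletion ran from -2.33 to -1.77 (not called without mouse 7 or 9), stored against depleted from -1.69 to -0.41 (called without mouse 10), RNase from -0.25 to 0.21, 0.026 U from -0.44 to 0.55, 0.67 U from -0.13 to 0.066, the difference between storage changes from -0.30 to 0.76 and the relative change without DNase from -0.14 to 0.23. For miR-21a-5p the relative changes ran from -0.12 to 0.085 and -0.11 to 0.14, the difference between storage changes from -0.38 to 0.38 and stored RNA without against with DNase from -0.10 to 0.64. Mmu-miR-145a-5p in storage with DNase ran from -0.86 to 0.69.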

Other observations

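The unscaled signal of mmu-miR-34a-5p was highest in mouse 10 in 8 of 8 groups. On the glog2 scale this held in 7 of 8. Summed over both of its probes, mouse 10 was 1.32 to 4.59 times as bright as the next mouse. Only 4 of the 631 miRNAs tested were highest in mouse 10 in every group on the unscaled signal, namely mmu-miR-34a-5p, mmu-let-7e-5p, mmu-miR-125a-5p and mmu-miR-652-3p. For mmu-miR-21a-5p this held in 4 of 8 groups. Mouse, slide and scan cannot be told apart.

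The star arm mmu-miR-34c-3p, a p53-responsive relative of miR-34a, was detected on 2 of 24 arrays, the stored DNase-treated arrays of mice 7 and 9, with 11.1 and 13.9 intensity units. It gave 1.07 units in mouse 10 after the same treatment, 1.67 to 2.19 units in stored tissue without DNase and at most 0.145 units on all other arrays. It was chosen for mention after its values were seen.

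Across the 90 of 103 reference miRNAs with a matched sequence, the storage change with DNase correlated with GC content at r = 0.625 (Pearson) and rho = 0.43 (Spearman). With the fresh glog2 level the storage change correlated at r = -0.409 (Pearson) and rho = -0.415 (Spearman). Both are descriptions across miRNAs measured on the same 6 arrays. The GC content of miR-21a-5p and miR-34a-5p was 36.4% and 50%.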
